A study of Mus musculus with 8 samples.

Results

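vEC_1 is an endothelial cluster of the embryonic mouse aorta-gonad-mesonephros (AGM), the region around the dorsal aorta. Its members were taken by their deposited cluster name and numbered 2853 of 15168 cells in the series. The 4 endothelial clusters set beside it held 2706 (vEC_2), 2486 (vEC_3), 1372 (vEC_4) and 1512 (aEC) cells. The authors had drawn and named the clusters from the RNA counts of these same cells, so differences in RNA between clusters are given below as descriptions with their spread over libraries and no test.

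The cells came from 8 libraries of CD31-sorted cells taken at embryonic day 10.5, each library a pool of 2 to 5 embryos. RNA and 6 antibody tags were counted per cell by CITE-seq, a droplet method in which antibodies carry a readable oligonucleotide. The 5 WT libraries are labelled with the strain C57BL/6, and by the study's methods such embryos lacked Cre. The 3 Meis1_cKO libraries carry the strain label Meis1-flox/VE-Cre and the genotype label Meis1-knockout. In that model exon 8 of Meis1 is flanked by loxP sites and Cre is driven by the VE-cadherin (Cdh5) promoter, so it acts in endothelium and in the blood cells that descend from it. No treatment was given to either group. Which embryos shared a litter is not given in the labels, so p-values below measure the spread between these pools.

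Endothelial cells of the embryo take on arterial or venous character early. The nuclear receptor Nr2f2 (COUP-TFII) upholds venous fate and restrains Notch signaling, which in turn drives arterial genes such as Dll4, Hey1 and the connexin gene Gja4. Growing capillary plexuses hold cells between these states, among them tip cells that lead sprouts, and arterial cells tend to leave the cell cycle as they mature. A cluster that cycles can therefore differ from another in 2 ways, by the phases its cells are in and by its vessel identity.

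Median UMIs (counted RNA molecules) per vEC_1 cell ran from 23130 to 26487.5 in WT 1 to 4, and from 8379 to 13290.5 in WT 5 and the Meis1_cKO libraries. Depth and genotype are thus nearly confounded, and WT 5 is the single WT library at the depth of the Meis1_cKO libraries. Within libraries, vEC_1 cells held on average 0.832 times the median UMIs of vEC_2 and 0.875 times those of vEC_3, but 1.23 times those of vEC_4 and 1.20 times those of aEC. Cell barcodes shared between libraries numbered 33, and 15 vEC_1 cells had such a barcode. The targeted gene was scarce in vEC_1, with 112 Meis1 UMIs over all libraries. Meis1 stood at 2.34, 2.88, 3.12, 2.00 and 2.97 CPM, the counts of a gene scaled to equal library totals, in WT 1 to 5. In Meis1_cKO 1 to 3 the values were 1.44, 2.60 and 1.40 CPM. The groups overlapped through Meis1_cKO 2, and the difference of -0.852 CPM had p = 0.0893 (exact permutation of 8 libraries, two-sided, smallest possible 0.0179). Reads at the 3′ end of the transcript lie outside the deleted exon and are no direct check of its loss. The row of the Cre transgene held 0 UMIs in each WT library and 12, 3 and 19 UMIs in the Meis1_cKO libraries, with 1 of these in vEC_1 cells of each.

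The pan-endothelial markers were present in vEC_1. Cdh5, the endothelial cadherin, stood at 351 ± 25.4 CPM in vEC_1 (SD, n = 8 libraries), with 323 in the lowest and 387 in the highest library. It ranged over the other 4 clusters from 340.02 CPM in vEC_2 to 429 CPM in vEC_4. Pecam1, which encodes the sorted antigen CD31, stood at 169 ± 16.1 CPM in vEC_1 and at 254 ± 38.7 CPM in aEC. Of 20 endothelial genes listed, 0 were at least 2-fold apart between vEC_1 and vEC_2 and 0 between vEC_1 and aEC, beside 0.12% and 2.0% of all genes compared. Against vEC_3 and vEC_4 1 of the 20 was apart, Cd34, which encodes a sialomucin of endothelial and blood stem cells and was higher in vEC_1 (640.2 CPM) than in vEC_3 (291 CPM) and vEC_4 (183 CPM). Over the 20 genes the mean log2 difference from aEC was -0.23 ± 0.04, with 17 of the 20 lower in vEC_1. The hematopoietic gene Ptprc gave a UMI in 0.243% of vEC_1 cells after each cell was thinned to 5000 UMIs, against 55.5% of Myeloid cells.

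The third marker, Nr2f2, placed vEC_1 between arterial and venous cells. Nr2f2 (chr7:70351946-70366746, GRCm38.p6) stood at 72.8 CPM in the lowest, 106 in the median and 121 in the highest vEC_1 library. In aEC the same 3 values were 30.3, 39.8 and 56.4 CPM, and in vEC_4 they were 246, 284 and 347 CPM. No vEC_1 library overlapped with those of aEC or vEC_4, while the ranges of vEC_1 and vEC_2 met (102 to 148 CPM in vEC_2). Within libraries Nr2f2 was higher in vEC_1 than in aEC by 1.27 ± 0.20 on the log2 scale and lower than in vEC_2, vEC_3 and vEC_4 by 0.34, 1.18 and 1.54. After thinning, 36.7 ± 5.57% of vEC_1 cells had an Nr2f2 UMI, against 15.9% of aEC, 71.2% of vEC_4 and 2.16% of Myeloid cells, which lack this gene and mark the background of free RNA. The level of Nr2f2 in vEC_1 was thus about midway between aEC and vEC_4 on the log2 scale.

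**Figure D1:**
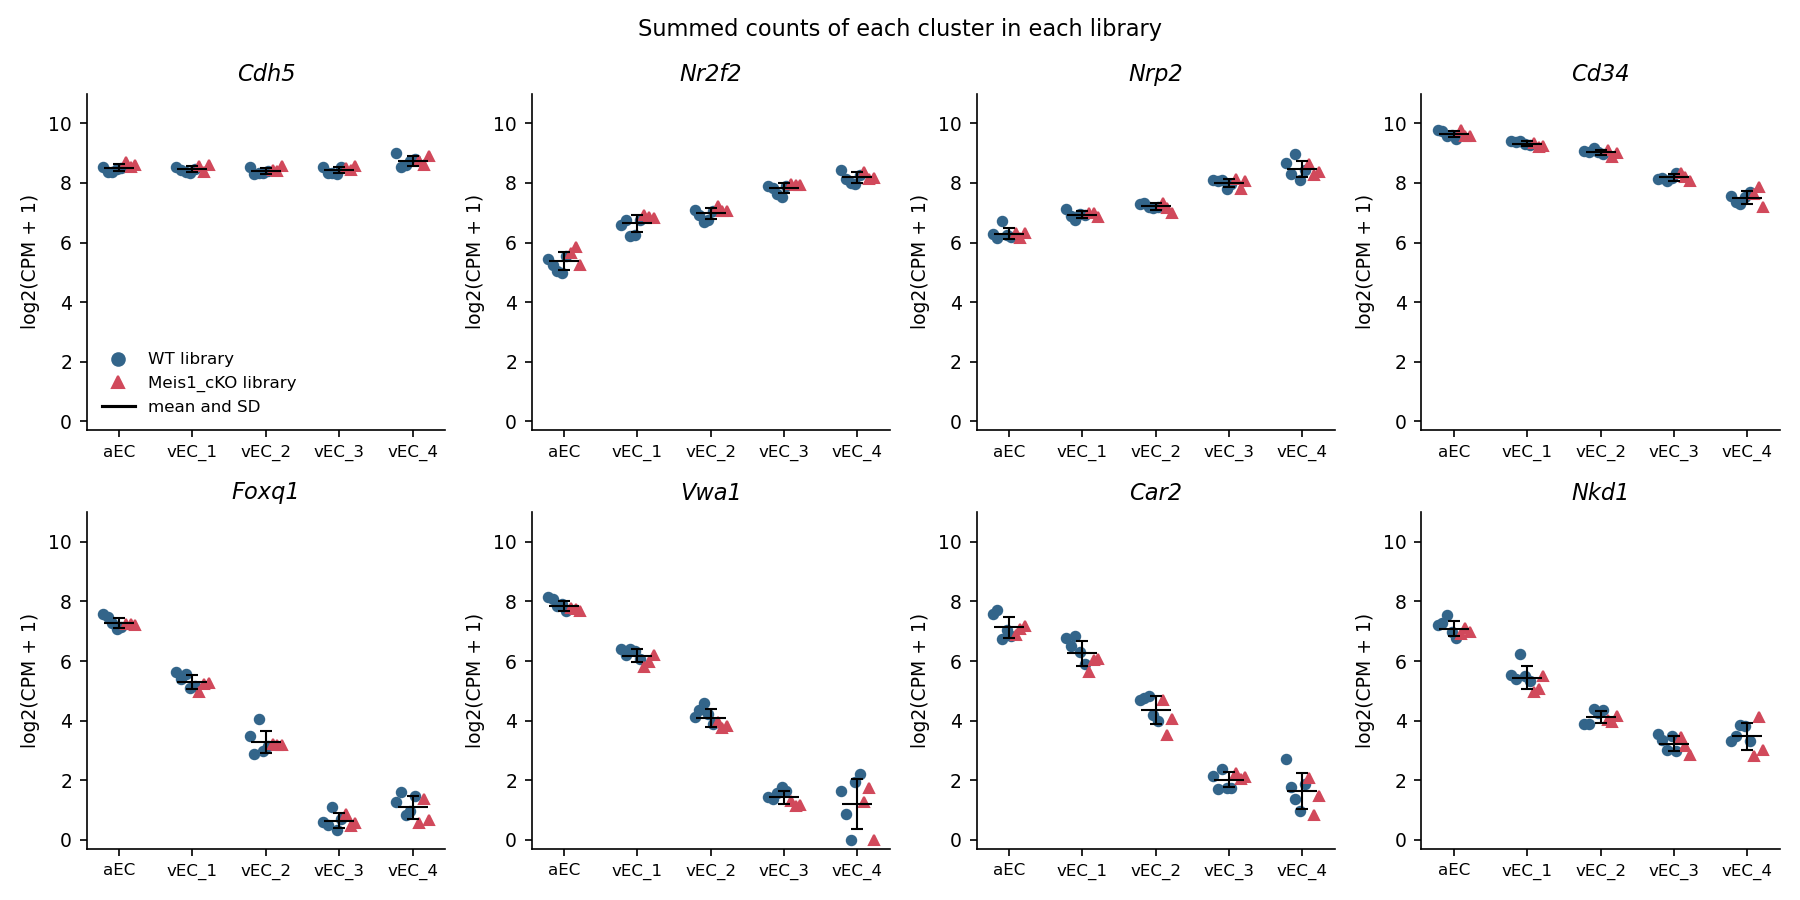
Level of 8 genes in the summed counts of each cluster, as log2(CPM + 1), with a point per library (circles WT, triangles Meis1_cKO) and the mean and SD over 8 libraries. Cdh5 was level over the 5 clusters, Nr2f2 and Nrp2 rose from aEC through vEC_1 to vEC_4, and Cd34, Foxq1, Vwa1, Car2 and Nkd1 ran the other way.

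Against vEC_2, its nearest neighbor, few genes set vEC_1 apart and all of them were higher. A gene was counted as apart where the mean difference within libraries was at least 1 on the scale log2(CPM + 1), the sign was the same in every library and the mean in the higher cluster was at least 25 CPM. A gene under 25 CPM in 1 of the 2 clusters was counted only through the other. Its direction is then set, here and for the lists below. By the whole rule 6 of 5012 genes (0.12%) were higher in vEC_1 than in vEC_2 and 0 were lower. They were Vwa1, Foxq1, Car2, Cdkn1a, Nkd1 and Slc7a5. None of the 6 had overlapping library ranges in the 2 clusters, and all 6 had a higher mean in aEC than in vEC_1. The rule that chose the 6 favors such a gap between ranges, and the share of all genes with one was not taken.

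Vwa1, which encodes a matrix protein with a von Willebrand factor A domain (chr4:155768495-155774693), stood at 54.6, 73.0 and 84.1 CPM in the lowest, median and highest vEC_1 library. In vEC_2 it stood at 12.5, 15.5 and 23.4 CPM, a log2 difference of 2.08 ± 0.22. Foxq1, a forkhead transcription factor (chr13:31558170-31560976), stood at 29.9, 36.8 and 48.5 CPM in vEC_1 and at 6.39, 8.12 and 15.8 CPM in vEC_2, a difference of 2.02 ± 0.30. Vwa1 and Foxq1 were nearly absent from vEC_3 and vEC_4, with means of 1.71 and 0.586 CPM in vEC_3, and reached 232 and 156 CPM in aEC. Car2, a carbonic anhydrase (chr3:14886269-14900770), stood at 48.2, 72.0 and 114 CPM in vEC_1 and at 10.5, 20.9 and 27.5 CPM in vEC_2, a difference of 1.92 ± 0.46. Its mean in aEC was 144 ± 37.8 CPM.

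The other 3 genes had smaller differences. Cdkn1a encodes p21, an inhibitor of cyclin-dependent kinases (chr17:29090979-29100722), and stood at 17.0, 23.9 and 45.1 CPM in the lowest, median and highest vEC_1 library against 4.96, 7.58 and 10.9 CPM in vEC_2. Its log2 difference was 1.56 ± 0.44, and its mean in aEC was 183 CPM. Nkd1, a feedback inhibitor of Wnt signaling (chr8:88521342-88594887), differed by 1.33 ± 0.33, with means of 44.0 CPM in vEC_1 and 16.5 CPM in vEC_2. Slc7a5, a transporter of large neutral amino acids (chr8:121881146-121907686), differed by 1.25 ± 0.37, with means of 29.0 and 11.1 CPM. Both were higher again in aEC, at 137 CPM for Nkd1 and 86.3 CPM for Slc7a5.

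Smaller steps ran in the same direction. Cdh2 (N-cadherin) had a mean of 176 CPM in vEC_1 and 95.8 CPM in vEC_2, a log2 difference of 0.89 ± 0.20. Slc2a1, the main glucose transporter of endothelium, had 289 and 172 CPM, a difference of 0.74 ± 0.14. In the other direction the cyclin gene Ccnd2 had 87.9 CPM in vEC_1 and 147 CPM in vEC_2, a difference of -0.77 ± 0.24, and Bmp4, a signaling ligand, had 8.61 and 15.2 CPM, a difference of -0.81 ± 0.27. These 4 genes differed with the same sign in 8 of 8 libraries without meeting the rule.

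More genes separated vEC_1 from vEC_3 and vEC_4. Against vEC_3, 118 of 5164 genes (2.29%) were apart, 60 of them higher (1.16%) and 58 lower (1.12%) in vEC_1. Against vEC_4, 249 of 5247 genes (4.75%) were apart, 82 higher (1.56%) and 167 lower (3.18%). Genes higher in vEC_1 began with Vwa1, Foxq1 and Car2, with log2 differences from vEC_3 of 4.75, 4.64 and 4.24. Cdh2 had 176 CPM in vEC_1 and 29.0 CPM in vEC_3, a difference of 2.54 ± 0.27. Hbegf, a growth factor of the EGF family, had 66.4 and 12.3 CPM, a difference of 2.37 ± 0.28. Kcne3, a potassium channel subunit and tip cell marker, had 60.2 and 12.4 CPM, a difference of 2.34 ± 0.47. Tdrp and Serp2, with 36.5 and 38.2 CPM in vEC_1, were also among the 8 genes with the largest rise against vEC_3 or vEC_4.

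Genes lower in vEC_1 than in vEC_3 and vEC_4 included regulators of lymphatic and venous fate. Prox1, the transcription factor that specifies lymphatic endothelium, had 3.68 CPM in vEC_1, 64.7 CPM in vEC_3 and 100.5 CPM in vEC_4, with log2 differences of -3.78 ± 0.46 and -4.39 ± 0.63. After thinning, 1.37% of vEC_1 cells had a Prox1 UMI, which is at the share of Myeloid cells (1.44%) and reads as background, against 24.4% of vEC_4 cells. Bmp4 had 66.1 CPM in vEC_3, a difference of -2.84 ± 0.24, and the forkhead factor Foxc2 had 5.23 CPM in vEC_1 and 33.6 CPM in vEC_3, a difference of -2.56 ± 0.48. The endocytic adaptor Dab2 had 28.5 and 123 CPM, and the neuropeptide gene Nts had 15.9 and 67.4 CPM. Prss23, Ralgapa2 and Nnat were the others of the 8 largest falls against vEC_3, with differences from -2.34 to -1.98.

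The genes with the largest fall against vEC_4 had a few CPM or less in vEC_1. Lyve1, a hyaluronan receptor of lymphatic and sinusoidal endothelium, had 1.84 CPM in vEC_1 and 78.2 CPM in vEC_4, a log2 difference of -4.87 ± 0.49. Adgrg6, an adhesion G protein-coupled receptor, had 0.509 and 39.4 CPM, a difference of -4.74 ± 0.45. Fabp4, a fatty acid binding protein, had 1.76 and 52.5 CPM, and Slit3, a guidance ligand, had 0.993 and 35.1 CPM. Igfbp5, Sdpr and Nrxn3 completed the group, with differences from -4.34 to -3.68. Differences of genes this low in vEC_1 depend on the added 1 CPM.

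Against aEC, 102 of 5096 genes (2.0%) were apart, 22 higher (0.432%) and 80 lower (1.57%) in vEC_1. Igfbp7, which encodes a secreted binding protein, had the largest fall, with 2.97, 6.61 and 13.0 CPM in the lowest, median and highest vEC_1 library and 88.5, 176 and 258 CPM in aEC. Its log2 difference was -4.42 ± 0.28. Gja4 had 15.6 CPM in vEC_1 and 143 CPM in aEC, a difference of -3.08 ± 0.51, and Cdkn1a differed by -2.79 ± 0.27. Both genes had no overlap between the 2 clusters, a gap that the rule favors. Spock2 and Htra3, a proteoglycan and a serine protease of the matrix, differed by -3.81 and -3.71, and Sox9, a transcription factor, by -3.60. Esm1, a secreted proteoglycan of tip cells, had 11.1 and 74.2 CPM, and AU021092 completed the 8.

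Genes higher in vEC_1 than in aEC included an enzyme of serine synthesis, adhesion genes and replication histones. Gap43, a growth-associated membrane protein, had 133 CPM in vEC_1 and 49.1 CPM in aEC, a log2 difference of 1.49 ± 0.36. Phgdh, the entry enzyme of serine synthesis, had 28.0 and 10.8 CPM, and Flrt2, an adhesion protein, had 28.9 and 11.1 CPM. Ly6h had 63.9 and 25.9 CPM. Another 3 of the 8 were replication histones, Hist1h1b, Hist1h1a and Hist1h2ap, with differences of 1.59, 1.35 and 1.34. Histone genes are near copies of each other, so their counts are uncertain, and they are made in S phase.

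The listed venous and arterial genes placed vEC_1 in the same order. All 3 of the venous genes used by the study (Nr2f2, Nrp2 and Ephb4) were at least 2-fold lower in vEC_1 than in vEC_4, beside 3.18% of all genes. Their median log2 difference was -1.53 beside 0.00 over all genes. Against vEC_3, 2 of the 3 were apart, beside 1.12% of all genes lower. Against vEC_2 none was, with a median of -0.27. Nrp2, a semaphorin and VEGF-C co-receptor, had 108, 123 and 137 CPM in the lowest, median and highest vEC_1 library, 126, 146 and 161 CPM in vEC_2 and 70.6, 76.6 and 104 CPM in aEC. Its ranges overlapped with those of vEC_2 and not with those of aEC. Ephb4, the venous ephrin receptor, had 36.9 CPM in vEC_1, 37.5 CPM in vEC_2 and 28.5 CPM in aEC. The study named its clusters with such markers, so they are no independent evidence of direction.

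Of the 9 arterial genes used by the study, 7 reached 25 CPM in vEC_1 or aEC and all 7 had a lower mean in vEC_1. Of the 7, 2 were apart, beside 1.57% of all genes lower. Their median log2 difference was -0.84 beside 0.02 over all genes. Dll4, the Notch ligand, had 13.7 CPM in vEC_1, 40.9 CPM in aEC and 6.31 CPM in vEC_2. Jag1, another Notch ligand, had 20.6 CPM in vEC_1, 50.3 CPM in aEC and 10.8 CPM in vEC_2. Both lay between aEC and vEC_2. Only 4 of the 9 genes reached 25 CPM in vEC_1 or vEC_2. The rest of the 7, Dll4 and Jag1 among them, were counted only through aEC, which set their direction. Gja5 was near 0 in all 5 clusters, with at most 3.67 CPM. Over the 9 genes the mean difference was 0.38 ± 0.12 against vEC_2, 0.64 ± 0.18 against vEC_3 and -0.90 ± 0.17 against aEC, with the same sign in 8 of 8 libraries each time. Against vEC_4 it was 0.15 ± 0.31 with 6 of 8 libraries positive, which is within the spread between libraries.

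A second list of arterial genes gave like values. Sox17, a transcription factor that acts upstream of Notch in arteries, had 116 CPM in vEC_1, 197 CPM in aEC, 90.6 CPM in vEC_2 and 42.3 CPM in vEC_4. Hey1, a target of Notch, had 11.7 CPM in vEC_1, 65.8 CPM in aEC and 2.60 CPM in vEC_2. Acvrl1, the receptor ALK1, had 56.8 CPM in vEC_1, 78.8 CPM in aEC and 41.7 CPM in vEC_2. All 3 differed in the same direction in 8 of 8 libraries in each of these comparisons. Cxcr4, the receptor of Cxcl12, had 16.3 CPM in aEC, 0.976 CPM in vEC_1 and between 0.16 and 0.544 CPM in the other vEC clusters.

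To place vEC_1 among its neighbors, the genes that separate the 2 ends of the series, aEC and vEC_4, were taken by the same rule without use of vEC_1. All clusters were still drawn together from these counts. Of 245 genes higher in aEC than in vEC_4, 235 had a mean in vEC_1 between those ends, and 127 followed the full order aEC, vEC_1, vEC_2, vEC_3, vEC_4. Genes chosen for a gap between 2 ends tend to put other clusters between them. Counts of genes between the ends, here and below, are thus partly set by the choice. They were not taken for vEC_2 or vEC_3. vEC_1 was the nearest of the first 3 venous clusters to aEC for 233 of the 245. With vEC_4 set to 0 and aEC to 1 on the log2 scale, the median gene lay at 0.595 in vEC_1, 0.358 in vEC_2 and 0.022 in vEC_3. Of 180 genes lower in aEC, 147 lay between the ends in vEC_1, with median positions of 0.808, 0.684 and 0.231. The vEC_1 positions of single libraries ran from 0.55 to 0.627 for the first set and from 0.747 to 0.835 for the second, and did not meet those of vEC_2. vEC_1 thus lay closer to aEC for genes that arterial cells lack than for genes that arterial cells carry.

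**Figure D2:**
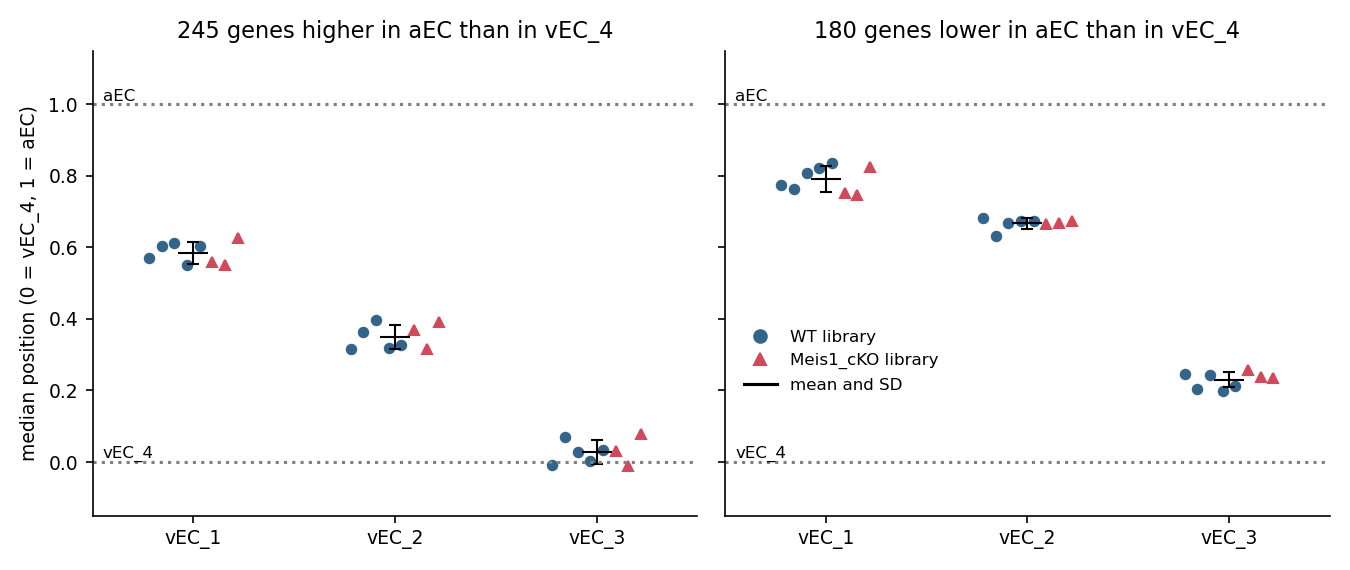
Median position of vEC_1, vEC_2 and vEC_3 between vEC_4 (0) and aEC (1) on the log2 scale, for genes higher (left) and lower (right) in aEC than in vEC_4, with a point per library and the mean and SD over 8 libraries. vEC_1 lay nearest to aEC in both sets, and in each set its 8 libraries stood above those of vEC_2.

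Of 12 listed tip cell genes, 5 reached 25 CPM in vEC_1 or vEC_4. Of these, 3 were apart, all higher in vEC_1, beside 1.56% of all genes higher. Against vEC_2 0 of 5 were apart, beside 0.12% of all genes. Kcne3 had 60.2 CPM in vEC_1 and 6.66 CPM in vEC_4, and Nid2, a basement membrane protein, had 41.9 and 7.45 CPM. Against aEC, 9 reached 25 CPM, all 9 had a lower mean in vEC_1 and 6 were apart, beside 1.57% of all genes lower. The median log2 difference of the 9 was -1.10. Only 5 reached 25 CPM in vEC_1 or vEC_2, so the rest of the 9 counted through aEC alone, which set their direction. Over all 12 genes, without that filter, the mean log2 difference from aEC was -1.46 ± 0.15, with the same sign in 8 of 8 libraries. Kcne3 was an exception in size, with a difference from aEC of -0.29 ± 0.33. Apln, the apelin ligand, had 26.3 CPM in vEC_1, between 24.6 and 30.8 CPM in the other vEC clusters and 49.6 CPM in aEC, so it did not differ in steps between the vEC clusters. The list shares Dll4, Cxcr4 and Unc5b with the arterial lists.

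Nkd1, Foxq1, Slc7a5 and Slc2a1 belong to genes known from Wnt signaling and from brain-type endothelium, and a list of 20 such genes was drawn up after these values had been seen. Of the list, 6 reached 25 CPM in vEC_1 or vEC_3, and 5 of these were at least 2-fold higher in vEC_1, beside 1.16% of all genes. Against aEC 10 reached 25 CPM and 6 of these were apart, all lower in vEC_1, beside 1.57% of all genes. Since the list was chosen with the values known, these counts describe its members and are no measure of enrichment. Lef1, a transcription factor that carries the Wnt signal, had 74.3 CPM in vEC_1, 61.8 CPM in vEC_2, 29.5 CPM in vEC_3 and 119 CPM in aEC. Axin2, a general Wnt target, had 10.5 CPM in vEC_1, 6.51 CPM in vEC_2, 1.44 CPM in vEC_3 and 15.2 CPM in aEC. Both genes fell in the order aEC, vEC_1, vEC_2, vEC_3. Fzd4, a Wnt receptor, ran the other way, with 33.1 CPM in vEC_1, 62.0 CPM in vEC_3 and 25.6 CPM in aEC.

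Of 37 Hox genes, which encode factors of position along the body axis, 5 reached 25 CPM in vEC_1 or vEC_4. All 5 had a lower mean in vEC_1 and 3 were apart, beside 3.18% of all genes lower. Only 1 Hox gene reached 25 CPM in vEC_1 or aEC. The rest of the 5 thus counted through vEC_4 alone, which set their direction. Over all 37 Hox genes, without that filter, the mean log2 difference from vEC_4 was -0.34 ± 0.10, lower in 8 of 8 libraries. Of 10 TALE homeobox genes 6 reached 25 CPM in vEC_1 or vEC_4. Of these 2 were apart and lower, beside the same 3.18%, and 1 had a higher mean in vEC_1. Hoxa5 had 19.5 CPM in vEC_1, 32.8 CPM in vEC_2, 78.7 CPM in vEC_3, 154 CPM in vEC_4 and 11.4 CPM in aEC. Its difference from vEC_2 was -0.72 ± 0.08 on the log2 scale, with the same sign in 8 of 8 libraries. Meis2, a TALE homeobox gene and relative of Meis1, had 13.3 CPM in vEC_1, 17.0 CPM in vEC_2, 47.1 CPM in vEC_3 and 93.8 CPM in vEC_4. Meis1 itself had 2.34 CPM in vEC_1, 6.99 CPM in vEC_3 and 8.26 CPM in vEC_4, over both genotypes.

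Values of other lists follow. Among flow-responsive genes Klf2 had 263 CPM in vEC_1, 276 CPM in vEC_2 and 492 CPM in vEC_4, and Edn1, the vasoconstrictor endothelin-1, had 13.2 CPM in vEC_1 and 171 CPM in vEC_4. Of this list 0 genes were apart from vEC_2. Against vEC_4, 3 of 7 were apart and lower, beside 3.18% of all genes, and the median log2 difference of the 7 was -0.92. Of 14 basement membrane genes, 13 reached 25 CPM and 12 had a higher mean in aEC than in vEC_1. Nid2 alone was apart, beside 1.57% of all genes lower. Id1, a target of BMP signaling, had 192 CPM in vEC_1 and 131 CPM in vEC_2, a difference of 0.56 ± 0.14. Hemogenic genes gave little, with Runx1 at 0.861 CPM and Gfi1 at 0.0376 CPM in vEC_1. Mecom was the one listed hemogenic gene apart from aEC, with 27.4 and 58.1 CPM.

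Cells of vEC_1 were mostly called in cycle. Phases were called on cells thinned to 5000 UMIs, from lists of 43 S and 54 G2/M genes, and a cell with both scores below 0 was called G1. Of 2832 vEC_1 cells with enough UMIs, 182 were called G1, 849 S and 1801 G2/M, and 535 (18.9%) lay within 0.1 of the cut for G1. S or G2/M was called in 93.9 ± 3.01% of vEC_1 cells, from 87.8% in WT 4 to 96.4% in WT 5. The share was 99.6% in vEC_2, 98.9% in vEC_3, 62.8% in vEC_4 and 55.2% in aEC. It was lower in vEC_1 than in vEC_2 and vEC_3 in 8 of 8 libraries and higher than in vEC_4 and aEC in 8 of 8. Cell cycle genes took part in drawing the clusters, so this is a description. Calls rest on scores of lists, and a high share of calls is no measure of division by itself.

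**Figure D3:**
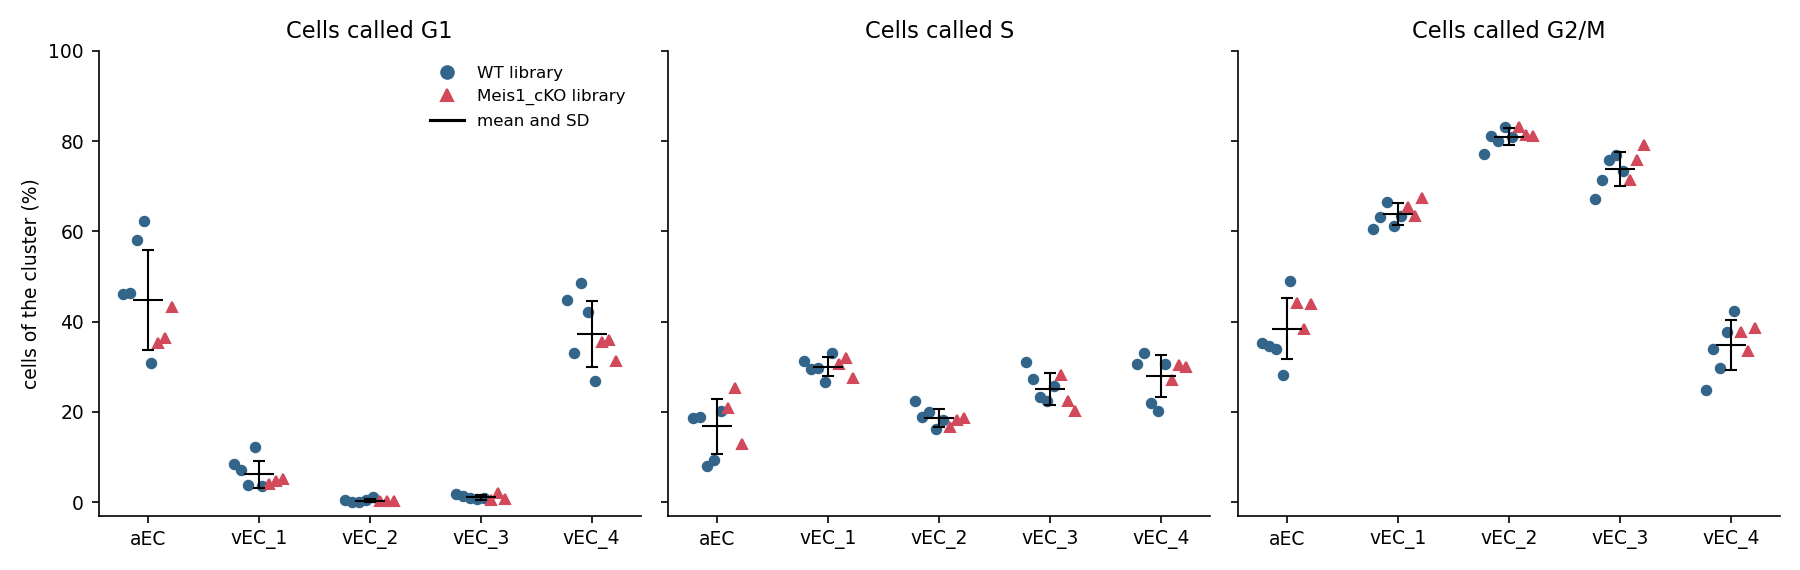
Percent of the cells of each cluster called G1, S and G2/M after thinning to 5000 UMIs, with a point per library and the mean and SD over 8 libraries. vEC_1 had few G1 calls, more S calls than vEC_2 and fewer G2/M calls than vEC_2 and vEC_3.

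Levels of cell cycle genes are given beside these calls. The calls were made from the S and G2/M lists, so the levels of these lists are no separate check of them. Top2a, a topoisomerase of G2 and mitosis, had 300.3 ± 14.3 CPM in vEC_1, 479 CPM in vEC_2, 506 CPM in vEC_3, 207 CPM in vEC_4 and 162 CPM in aEC. Over the G2/M list the mean log2 difference was -0.41 ± 0.05 against vEC_2, -0.40 ± 0.06 against vEC_3, 0.57 ± 0.23 against vEC_4 and 0.57 ± 0.21 against aEC. Over the S list it was 0.05 ± 0.06 against vEC_2 and 0.59 ± 0.25 against aEC. Genes of ribosome biogenesis, which are high in growing cells, had a mean difference of -0.29 ± 0.05 against vEC_2 and 0.66 ± 0.13 against aEC. Within this list Myc had 21.4 CPM in vEC_1, 32.6 CPM in vEC_2 and 7.74 CPM in aEC, whereas Mycn had 47.9 CPM in vEC_1 and 46.0 CPM in vEC_2.

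The contrasts were then repeated within each called phase. The phase is held only in part by this, since among G2/M cells the mean log2 difference over the G2/M list was still -0.25 ± 0.04 against vEC_2 and -0.30 ± 0.05 against vEC_3, lower in 8 of 8 libraries in both. All 6 genes higher than in vEC_2 were at least 2-fold higher both among S and among G2/M cells, and 4 of the 6 met the whole rule in both, with Cdkn1a and Slc7a5 under 25 CPM among S cells. Among G2/M cells Vwa1 differed from vEC_2 by 2.17 ± 0.26, Foxq1 by 2.12 ± 0.31 and Car2 by 2.03 ± 0.50. Against vEC_3 all 118 genes kept their sign within S and within G2/M, and against vEC_4 1 of 249 changed sign, among G1 cells. All these genes were chosen for their difference over all cells, most of which were called S or G2/M. A kept sign among a part of the same cells is thus largely set by the choice. The share of all genes that keep their sign was not taken. The 60 genes higher than in vEC_3 had a median difference of 1.45 over all cells, 1.30 among S cells and 1.55 among G2/M cells. The 58 lower ones had -1.35, -1.22 and -1.44. Against vEC_4 the 82 higher genes had medians of 1.40 over all cells and 1.27, 1.30 and 1.65 in G1, S and G2/M. The 167 lower genes had -1.51, -1.50, -1.33 and -1.46. The whole rule was met within G1, S and G2/M by 39, 53 and 72 of the 82 and by 116, 125 and 130 of the 167. Medians of these chosen genes were thus of about the same size within a phase as over all cells. Fewer of the genes met the rule there. Fewer than 10 cells per library were called G1 in vEC_2 and vEC_3, so no G1 value can be given for them.

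Against aEC the size of the differences varied with the phase. All 102 genes kept their sign within G1, S and G2/M cells, which the choice of genes over these same cells largely sets. The 80 genes lower in vEC_1 had a median log2 difference of -1.33 over all cells, -2.36 among G1 cells, -1.01 among S cells and -1.13 among G2/M cells. Of the 80, the whole rule was met by 75, 32 and 47 in G1, S and G2/M. The 22 genes higher in vEC_1 had medians of 1.16 over all cells and 1.45, 0.89 and 0.93 in these phases. Of the 22, the whole rule was met by 13, 7 and 6, and by 2 in both S and G2/M. Gja4 differed by -5.73 among G1 cells and by -2.49 ± 0.38 among G2/M cells, and Igfbp7 by -6.54 and -3.81. Among G1 cells 82 of 5163 genes compared were higher and 267 lower in vEC_1. This was in 7 libraries, since WT 3 had too few such cells, with 15 to 67 G1 cells of vEC_1 in each. Among G2/M cells 6 of 5038 genes were higher and 47 lower, in 8 libraries. Genes that reached the 8 largest falls among G1 cells were Stra6, a retinol transporter, with 0.587 CPM in vEC_1 and 92.5 CPM in aEC, Apod with 0.0979 and 36.1 CPM, and Tnfrsf11b with 1.32 and 52.3 CPM. Among those that reached the 8 largest rises were Abcc9 with 31.9 and 5.95 CPM, Myc with 38.7 and 7.55 CPM, and Prl3b1 and C77370. By these medians and counts G1 cells of vEC_1 and aEC lay farther apart than cycling cells of the 2 clusters. The G1 sums of vEC_1 hold few cells, and the sign had to match in 7 and not 8 libraries. The G1 and G2/M counts are thus not on a like footing.

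Among G1 cells, 64 of 5210 genes were higher and 169 lower in vEC_1 than in vEC_4, again in 7 libraries. Kcne3 led the rises with 103 CPM in vEC_1 and 8.56 CPM in vEC_4, and Vwa1 followed with a log2 difference of 3.73 ± 0.75. Bok, a member of the Bcl2 family, had 167 and 22.2 CPM, St8sia4 had 43.7 and 6.36 CPM, and Tmem255a had 79.0 and 22.4 CPM. Edn1 was among the falls, with 7.65 and 200 CPM.

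Within vEC_1, gene levels moved with the called phase. Nr2f2 had 144 ± 43.6 CPM in G1 cells (n = 7 libraries), 112 ± 14.8 CPM in S cells and 91.0 ± 21.4 CPM in G2/M cells (n = 8 each). Nrp2 had 193, 135 and 110 CPM in the same order, and its log2 difference between G1 and G2/M was 0.76 ± 0.25, higher in G1 in 7 of 7 libraries. Ccnd2 had 206, 123 and 62.9 CPM and Myc had 38.7, 26.5 and 17.3 CPM. Nr2f2, Nrp2 and Ccnd2 were thus lower in G2/M than in G1 cells of vEC_1, each in 7 of 7 libraries.

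The genes that set vEC_1 apart from vEC_2 ran the other way. Foxq1 had 8.71 CPM in G1, 27.8 CPM in S and 45.4 CPM in G2/M cells. Vwa1 had 28.4, 60.3 and 80.3 CPM, and Car2 had 20.4, 67.8 and 88.8 CPM. All 3 were higher in G2/M than in G1 in 7 of 7 libraries. Cdkn1a did not share this pattern, with 51.0 ± 31.2 CPM in G1 and 25.7 CPM in G2/M cells and the higher value in G1 in 5 of 7 libraries. The cluster was drawn from these genes, so G1 cells are included in it by their whole profile, and these values describe its cells only.

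**Figure D4:**
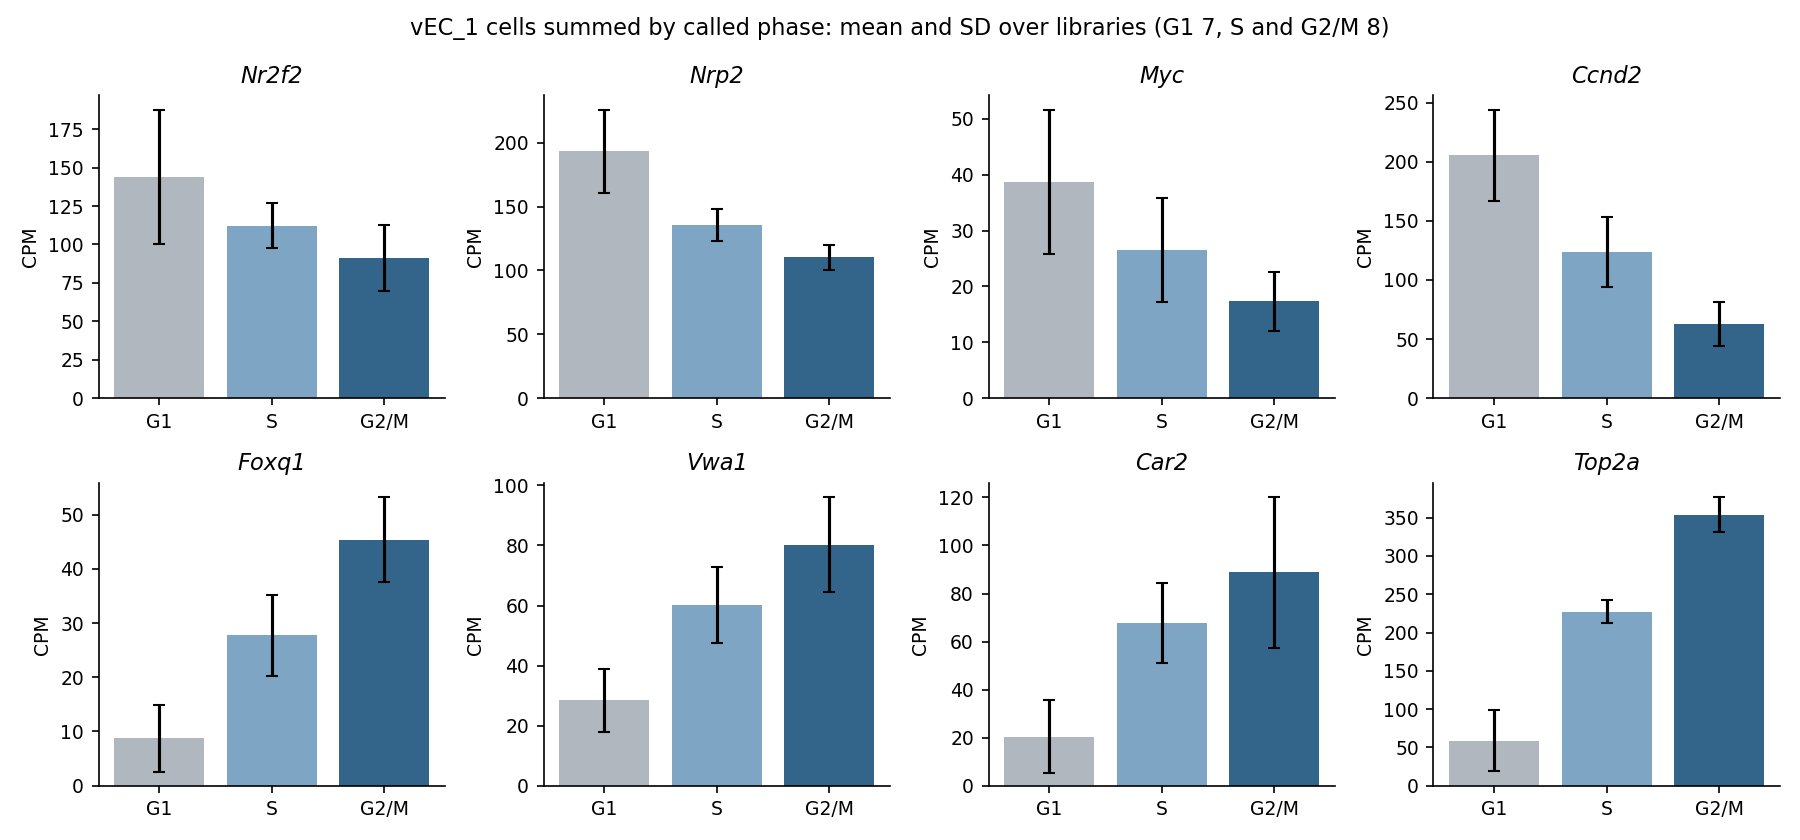
CPM of 8 genes in vEC_1 cells summed by called phase, with bars for the mean and lines for the SD over libraries (7 for G1, 8 for S and G2/M). Nr2f2, Nrp2, Myc and Ccnd2 fell from G1 to G2/M cells, and Foxq1, Vwa1, Car2 and Top2a rose. Phases were called from cell cycle genes, so the rise of Top2a, a cell cycle gene, is no separate result.

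vEC_1 cells also varied within a phase. The 80 genes lower in vEC_1 than in aEC were divided into sets A and B of 40, and thinned G2/M cells of vEC_1 were divided into tertiles within each library by their UMIs of set A. Cells held 6.01 ± 0.781 UMIs of set A on average, against 3.73 in vEC_2, 3.50 in vEC_3, 5.04 in vEC_4 and 15.0 in aEC. The aEC value is high by the choice of these genes. The 497 cells of the upper tertile had 1763 CPM of set B and the 724 cells of the lower tertile, which holds the ties, had 974 CPM, a log2 difference of 0.85 ± 0.18 in 8 of 8 libraries. Nr2f2 had 88.9 CPM in the upper and 109 CPM in the lower cells, higher in the upper cells in 1 of 8 libraries. The other venous genes of the study list differed by less than the spread between libraries, Nrp2 with 112 and 119 CPM and Ephb4 with 41.6 and 41.7 CPM, each higher in the upper cells in 4 of 8. Cd34 had 769 and 614 CPM, higher in the upper cells in 8 of 8. The pan-endothelial Cdh5 rose alike, with 386 and 313 CPM, also in 8 of 8. Top2a had 491 and 244 CPM although all these cells were called G2/M. The whole G2/M list was higher in the upper cells by 0.28 ± 0.10 on the log2 scale, in 8 of 8 libraries. The S list was level, at 0.003 ± 0.065. The upper cells thus also had more RNA of G2/M genes. Genes of sets A and B share cells and depth, and the part of the cell cycle in this difference was not tested.

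Shares of cells with a UMI were also taken. After thinning, 14.3 ± 3.09% of vEC_1 cells had a Foxq1 UMI, against 3.53% of vEC_2, 0.181% of vEC_3, 42.8% of aEC and 0.328% of Myeloid cells. Without thinning the share in vEC_1 was 31.0%, with median UMIs per cell of 8379 to 26487.5. Vwa1 gave a UMI in 23.9% of vEC_1 cells, 6.04% of vEC_2, 61.7% of aEC and 0.499% of Myeloid cells. Foxq1 and Vwa1 were thus above background in vEC_1 and vEC_2, and in vEC_3 they were near it.

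Clusters were drawn without the antibody tags, which are thus a separate readout of the same cells. Tags were counted in 7 libraries (all but WT 4), and CD44 in 4 of these. CD117, the receptor Kit, had 1.36 to 45.3 counts per vEC_1 cell over libraries, against 10.1 to 184 in the cluster named EHT. CD43 had 1.53 to 36.8 counts in vEC_1 and 64.1 to 533 in EHT. Levels differed between libraries by over 10-fold, so tags were compared as log2 ratios of mean counts within a library.

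Of 24 pairs of tag and cluster, 12 differed at an adjusted p of 0.0312 each (exact sign flips over libraries, two-sided, Benjamini-Hochberg), and in all 12 vEC_1 was lower. CD43 was lower in vEC_1 than in vEC_2 by 0.28 ± 0.08, vEC_3 by 0.44 ± 0.11, vEC_4 by 0.43 ± 0.09 and aEC by 0.06 ± 0.05 on the log2 scale, in 7 of 7 libraries each. CD45.2 was lower than in vEC_2, vEC_3 and vEC_4 by 0.44 ± 0.10, 0.72 ± 0.12 and 0.71 ± 0.27, and CD27 by 0.32, 0.54 and 0.47. CD117 was lower than in vEC_2 and vEC_3 by 0.21 and 0.35, and against vEC_4 its adjusted p was 0.0577. CD44, with 4 libraries, was lower than in vEC_2, vEC_3 and vEC_4 in 4 of 4, where exact sign flips cannot go below p = 0.125. CD41 passed in no pair. Against vEC_3 it was higher in vEC_1 in WT 5 and lower in the other 6 libraries, and against vEC_2, vEC_4 and aEC it was higher in 2, 2 and 4 of 7 libraries.

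The tag differences ran the same way for several antigens and depended on how they were read. As centred log ratios, which set each tag against the other tags of the same cell, 0 of 24 pairs passed, and as medians 0 passed. CD45.2 had the largest ratio as well as the largest centred difference, -0.22 against vEC_3 and -0.27 against vEC_4, with adjusted p = 0.0625. Ptprc, its own gene, had UMIs in under 0.4% of the cells of each of the 5 clusters, and Kit RNA had 29.3 CPM in vEC_1, between 24.1 and 27.1 CPM in the other vEC clusters and 34.4 CPM in aEC. Total RNA UMIs per cell were also lower in vEC_1 than in vEC_2 and vEC_3, but higher than in vEC_4 and aEC. The part of unspecific antibody binding in the tag values was not tested.

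**Figure D5:**
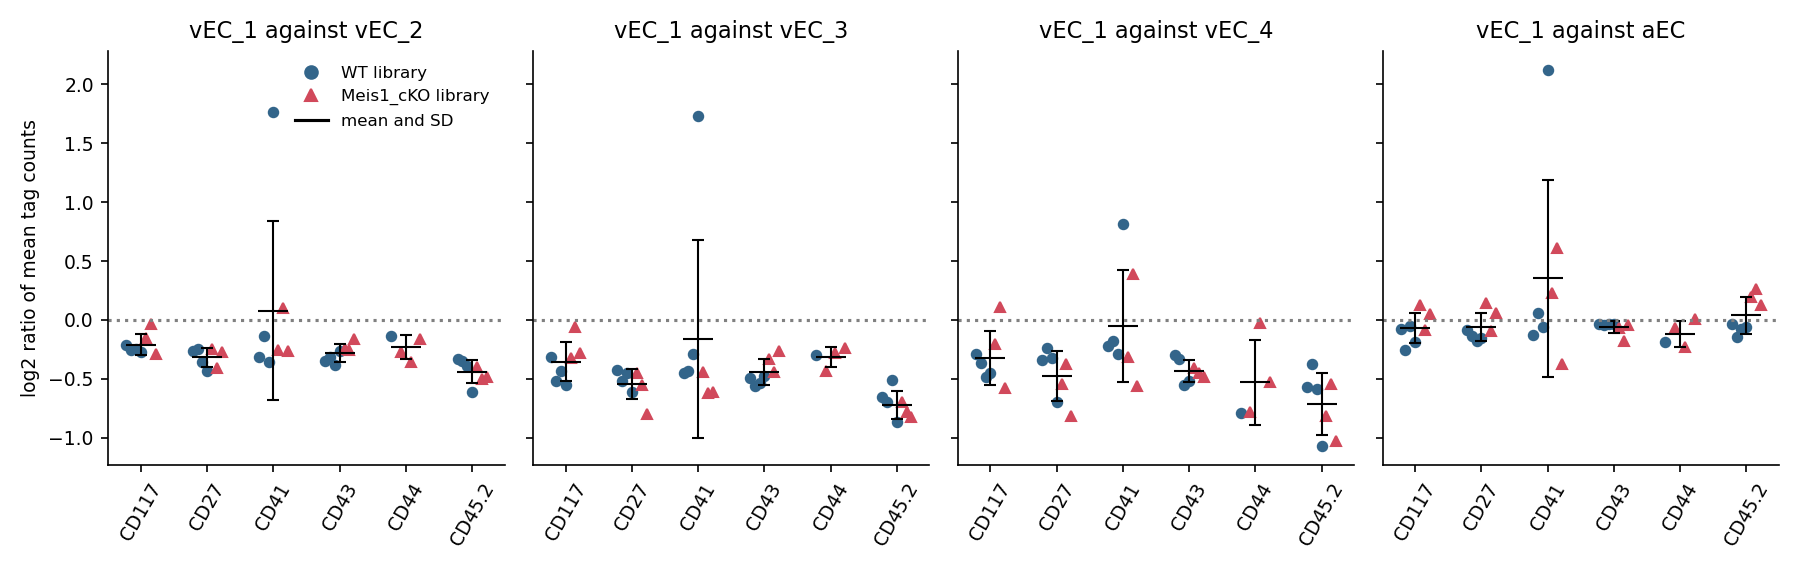
Log2 ratio of mean tag counts per cell in vEC_1 over each other cluster, with a point per library (7 libraries, 4 for CD44) and the mean and SD. Ratios of CD43, CD45.2 and CD27 against vEC_2, vEC_3 and vEC_4 lay below 0 in every library, and CD41 in WT 5 stood far above the rest against vEC_2, vEC_3 and aEC.

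Genotype took no part in the choice of cells and could be tested over libraries. vEC_1 made up 23.6%, 25.1%, 24.7%, 25.6% and 26.8% of the cells of the 5 endothelial clusters in WT 1 to 5, and 27.4%, 31.9% and 21.6% in Meis1_cKO 1 to 3. The Meis1_cKO values lay on both sides of the WT values, with means of 27.0 ± 5.17% and 25.2 ± 1.20% and p = 0.518 (exact permutation, two-sided). Without Meis1_cKO 3 the difference was 4.49 points with p = 0.0476 by the exact permutation test, the smallest p that so few libraries allow. Without Meis1_cKO 2 it was -0.666 points, and as a share of all cells it was -0.283 points. S or G2/M was called in 95.4 ± 0.557% of vEC_1 cells of Meis1_cKO and 92.9 ± 3.58% of WT, with p = 0.375 by the exact permutation test.

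Gene by gene, no difference between genotypes passed in vEC_1. Of 10490 genes tested on summed counts, 0 (0.0%) had an adjusted p under 0.1 (edgeR quasi-likelihood test, Benjamini-Hochberg), while 1473 had an unadjusted p under 0.05 and DESeq2 called 86. WT 5 decided this count, since without it 852 genes were called, 473 higher and 379 lower in Meis1_cKO. With the depth class of the libraries as a covariate 0 were called and 218 had an unadjusted p under 0.05. In the fit without WT 5 every WT library was deeper than every Meis1_cKO library.

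The 5 genes with the smallest p each had an adjusted p of 0.103 (edgeR, Benjamini-Hochberg). Hist1h4d, a histone gene, stood at 71.4, 79.6, 117, 78.4 and 15.6 normalized CPM in WT 1 to 5 and at 5.47, 7.02 and 11.5 in Meis1_cKO. Arl6ip5 stood at 96.3, 102, 98.4, 101 and 14.6 in WT and at 10.5, 8.66 and 14.2 in Meis1_cKO. AY036118 stood at 588, 550, 836, 473 and 173 in WT and at 143, 119 and 130 in Meis1_cKO. In all 3 WT 5 stood beside the Meis1_cKO libraries and far from WT 1 to 4, although its value was still above theirs. Tmem132a stood at 9.90 to 12.5 in WT and at 17.0 to 20.02 in Meis1_cKO, and here WT 5 stood with WT.

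The fifth gene, S100a8, is a calcium-binding protein of granulocytes. It stood at 0.311, 0.316, 0, 0 and 0.205 normalized CPM in WT 1 to 5 and at 3.04, 2.11 and 2.20 in Meis1_cKO. Levels of blood cell markers are given beside it. The summed level of 12 myeloid genes in vEC_1 was 23.8 to 41.3 CPM in WT and 39.0 to 66.6 CPM in Meis1_cKO, the ranges meeting through WT 5, and none of the 12 was at 0 in all libraries. S100a8 is itself 1 of the 12. The 4 of them that could be tested all had a fold change above 0, and none passed. The 10 erythroid genes summed to 32.6 to 169 CPM in WT and 109 to 221 CPM in Meis1_cKO, ranges that overlap, and 5 of 5 tested had a fold change above 0. Of the megakaryocyte list 3 of 3 tested had a fold change below 0. Their part in the S100a8 values was not tested. Mesenchymal genes summed to 9.22 CPM with Dcn at 0, and epithelial genes to 1.58 CPM with Cdh1 and Cldn6 at 0.

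None of the genes that mark vEC_1 passed between genotypes. Slc7a5 had a log2 fold change in Meis1_cKO of -0.79 ± 0.23 (SE) with an adjusted p of 0.224, Car2 one of -0.55 ± 0.18 with 0.248, and Nr2f2 one of 0.38 ± 0.13 with 0.253 (edgeR, Benjamini-Hochberg). Foxq1 and Vwa1 had -0.21 and -0.26, with adjusted p of 0.517 and 0.347 by the same edgeR test. Slc7a5 stood at 36.7 to 41.6 CPM in WT 1 to 4, 17.7 CPM in WT 5 and 16.3 to 24.5 CPM in Meis1_cKO, so WT 5 again stood with Meis1_cKO. Meis1 had a log2 fold change of -0.47 ± 0.33 with an adjusted p of 0.535 (edgeR, Benjamini-Hochberg). Of 3 venous genes used by the study 3 had a fold change above 0, and of the 8 tested arterial genes 6 had, with medians of 0.13 and 0.08 beside -0.0009 over all genes, and 0 of them passed. All 7 tested genes of the second arterial list had one below 0, with a median of -0.11, and again 0 passed.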

How the data were processed

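Raw UMI counts of 28014 genes and 6 antibody tags in 15168 cells were deposited by the authors without normalization, together with the library and cluster name of each cell. Per the submitters' processing notes reads were counted with Cell Ranger 3.0.2 on mm10. Per the study's methods, cells with over 2000 genes and a mitochondrial share under the authors' limit were kept, and clusters were drawn after integration and named by hand. All deposited counts were whole, and each cell held at least 2001 genes. CD44 tag counts were missing in 6309 cells and treated as missing.

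Counts were summed per library and cluster (at least 10 cells) and expressed as CPM, and differences were taken within libraries on log2(CPM + 1). Over all cells, the median gene differed between vEC_1 and another cluster by less than 0.1 on this scale. Total UMIs of vEC_1 per library ran from 3530521 to 14975939. Genotypes were tested with edgeR 4.0.16 (TMM, filterByExpr, quasi-likelihood) in R 4.3.3 with Benjamini-Hochberg adjustment and a threshold of 0.1, tags and shares by exact permutation at 0.05. Phases were called with scanpy 1.11.5. Scrublet called 83 cells (0.547%) doublets, 4 of them in vEC_1; they were kept. The edgeR genotype test was checked on simulated counts with 200 of 10490 genes changed. At log2 changes of 0.585, 1 and 1.5 it found 39.5%, 84.5% and 96% of them. Of the genes called, 9.2%, 11.1% and 12.7% were false. The simulated gene levels did not shift with depth, so this check does not cover the confounding of depth and genotype. Gene positions are those of RefSeq on GRCm38.p6.

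From each contrast, over all cells and over G1-called cells, up to 8 genes per direction outside the phase lists were named by size of difference, and members of the gene lists besides. For genotypes, with none called, the 5 smallest p-values were named. The cluster, lists and rules were chosen with earlier results of these data known, and genes of the Wnt and transport list after their values here. Alternatives were other pseudocounts, minimum levels, thinning, doublets left out, phases, DESeq2 1.42.0, RLE, no filter, other thresholds, a depth covariate, a replicate block, and each library left out. A gene that met the naming rule is not reported here.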

Additional observations from a re-analysis of the deposited data

Results flagged for a closer look

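Of 54 values tested, 9 had 1 library far from the others of its group by Dixon's criterion at 95%, which chance alone does in about 1 in 20. The CD41 tag of WT 5 stood high, with log2 ratios of vEC_1 to vEC_2, vEC_3 and aEC of 1.77, 1.73 and 2.13, and mean CD41 counts in WT 5 of 8.12 per vEC_1 cell against 2.39 per vEC_2 cell. The CD43 ratio to aEC was low in Meis1_cKO 2 (-0.179). Arl6ip5 was low in WT 5 among WT libraries (14.6 normalized CPM). In vEC_1, Nkd1 was high in WT 3 (74.8 CPM), and Gja4 (31.7 CPM) and Kcne3 (99.4 CPM) were high in WT 4. The share of cells called S or G2/M was 11.6 points lower in vEC_1 than in vEC_3 in WT 4, given as -11.6 points.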

How the results depend on the processing

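The numbers of genes apart from vEC_2, vEC_3, vEC_4 and aEC (6, 118, 249 and 102) became 18, 222, 417 and 180 with a minimum of 10 CPM and 0, 23, 57 and 24 with 100 CPM. They were 11 for vEC_2 among G2/M cells and 349, 54 and 53 for aEC among G1, S and G2/M cells, and with each library left out they ran from 5 to 8, 115 to 121, 231 to 258 and 98 to 118. The venous list kept its sign, with -0.15 (S) and -0.29 (G2/M) against vEC_2, -0.79 (S) against vEC_3, -1.15 (G1) and -1.20 (S) against vEC_4, and 1.25 (G1) and 0.59 (S) against aEC. The arterial list reversed against vEC_4 among G1 (-0.15) and S cells (-0.038), and against aEC it was -0.71 with a pseudocount of 5 CPM, -1.74 (G1), -0.53 (S) and -0.59 (G2/M). With cycling defined as 3 or more UMIs over the phase lists nearly all cells of each cluster cycled and the 4 differences became 0. The cause of these shifts was not tested.

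The share of vEC_1 among all cells differed by -0.283 points (p = 0.786, exact permutation), and with a library left out the share among endothelial cells differed by -0.67 to 4.49 points. The share called in cycle reversed with WT 5 as the single WT library (-0.963 points). No tag pair passed as medians (0) or centred log ratios (0), and 0 to 12 did with a library left out, where 6 libraries limit the smallest p. Medians reversed CD41 against vEC_2 (-0.055), CD27 (0.038) and CD44 (0.066) against aEC. Centred ratios reversed CD117 against vEC_2, vEC_3 and vEC_4 (0.074, 0.084 and 0.070), CD41 against vEC_3 and vEC_4 (0.11 and 0.17), CD43 against vEC_3 (0.022), and CD44 against vEC_2, vEC_3 and vEC_4 (0.0082, 0.048 and 0.10). CD41 ranged from -0.20 to 0.15 against vEC_2 and from -0.19 to 0.035 against vEC_4 with a library left out.

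Genes called between genotypes numbered 86 with DESeq2, 297 with no filter on low counts, 26 in thinned cells, 13, 13 and 2 in G1, S and G2/M cells, and 0 to 852 with a library left out (852 without WT 5, 3 without WT 4 and 1 without Meis1_cKO 3). With libraries 1 to 3 of each genotype the replicate block gave 1330 and no replicate block gave 573. Deviations of libraries with the same number correlated at -0.06, 0.19 and 0.18, so the numbers were not taken to pair libraries. The count stayed at 0 with RLE scaling, a threshold of 0.05, Bonferroni adjustment, doublets left out, a depth covariate and WT 5 as the single WT library.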

Other observations

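Clec1b, known from platelets, was abundant in these endothelial cells, with 382 CPM in vEC_1, 548 CPM in aEC, 278 CPM in vEC_2 and 90.7 CPM in vEC_4. It was the 1 gene of a list of 8 megakaryocyte genes that reached 25 CPM in vEC_1. The list summed to 387 to 456 CPM in the WT libraries and 327 to 372 CPM in the Meis1_cKO libraries, ranges that did not overlap. Clec1b made up most of the sum, which had a mean of 403 CPM over the 8 libraries. WT 5 had the lowest WT value. The share of all genes with ranges that do not overlap was not taken. Genes of the sinusoidal and lymphatic list summed to 113 to 140 CPM in WT and 149 to 161 CPM in Meis1_cKO, and did not overlap either. Bok, a member of the Bcl2 family, had 433 CPM in aEC, 222 CPM in vEC_1, 148 CPM in vEC_2, 69.9 CPM in vEC_3 and 33.3 CPM in vEC_4, a fall along the same order as the genes of the report. Clec1b, Bok and both list sums were singled out after their values were seen.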
